A study of Mus musculus with 6 samples.

Results

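Nuclear receptors are transcription factors, most of which are switched by a small fat-soluble ligand such as a steroid, thyroid hormone, retinoic acid or a fatty acid. They bind short hexamer sequences in DNA as monomers or pairs, often with a retinoid X receptor as partner, and recruit coactivators or corepressors that open or close chromatin. In fibroblasts and other mesenchymal cells they set responses to glucocorticoids, retinoids and lipids, and several are induced within minutes of serum addition. The 45 mouse genes described here are nuclear receptors, chosen by symbol from the receptor family without Nr6a1, which the series title names. A gene was represented by 1 probe set, a group of short probes on the array, namely the one with the highest mean over the 6 arrays among those annotated to that symbol alone. Such a probe set was found for 43 of the 45 genes, of 18193 genes with one in all. Nr1h2 and Nr2e3 were not analysed here.

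The arrays held RNA of sarcoma cell lines of strain C57BL6/J, 3 samples heterozygous and 3 null for Dicer, the ribonuclease that releases mature microRNAs from their precursors. All 6 samples were grown in DMEM with serum and antibiotics and collected at confluence, and none was treated with a receptor ligand according to the labels. The labels give neither the tissue from which the sarcomas arose nor whether a line is 1 clone, and no sample had both copies of Dicer. Nothing in them says that the 3 samples of a group came from separate cultures, so p-values measure only the spread between these samples, which may be technical.

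Values are log2 signals, so that a difference of 1 is a 2-fold change, and the smallest and largest on the arrays were 0.40 and 14.18. A probe set was tested where its mean over the arrays was at least 3, a minimum set here for low signals. The brightness of a probe set depends on its own sequence, so signals of different genes are not ranked as amounts of RNA. The arrays correlated at 0.972 to 0.988 within the heterozygous group, 0.988 to 0.991 within the null group and 0.963 to 0.981 between the groups. Heterozygous replicate 3 stood apart in 19 proliferation genes, whose mean was 9.29 there, 10.31 in each of the other heterozygous arrays and 10.60 to 10.92 in the null arrays. The targeted gene, Dicer1, gave 8.32 ± 0.24 and 8.46 ± 0.09 in heterozygous and null arrays (SD, n = 3). Which exons were lost is not in the labels, so this level does not check them. Markers of mesenchymal cells were bright. The average of all 12 lay between 11.32 and 11.62 in the heterozygous and between 10.84 and 11.21 in the null arrays. Of the 12, 11 had a mean of at least 3. Of the markers of other cell types, 1 of 10 for hepatocytes (Apoa1), 1 of 11 for leukocytes (Cd68), 1 of 10 for endothelium (Egfl7), 2 of 7 for steroid-making cells, 2 of 12 for neural cells, 3 of 8 for adipocytes and 4 of 12 for epithelium reached that level. The leukocyte antigen Ptprc gave at most 1.62 and the adipocyte hormone Adipoq at most 2.81 in any array. The keratin Krt18 gave 9.02 in heterozygous replicate 1 and 2.0 to 2.68 in the other arrays.

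Of the 43 receptors, 25 reached the minimum and were tested, and the other 18 did not. Of the 25, 3 were lower in the Dicer null arrays, Thra, Rarg and Esr1, and 0 were higher. All are receptors with a hormone or vitamin ligand, but so are Nr3c1, Nr3c2, Vdr, Rara and Rarb, which were tested and not called. With ordinary t statistics, which do not share the spread between genes, Thra, Rarg and Esr1 were not called (adjusted p = 0.116, 0.112 and 0.133). By them 0 probe sets of any gene were called. By those statistics 6 of the 25 receptors had an unadjusted p under 0.05, beside 4873 of the 24385 tested probe sets. A gene is called where limma's p-value, adjusted by the method of Benjamini and Hochberg across the 24385 probe sets, was under 0.05, and 3.10% of probe sets and 3.46% of the 11425 tested genes were. Over these genes 2.0% were called lower and 1.45% higher, against 12% (3 of 25) and 0 of 25 of the receptors, a share that rests on 3 genes. By looser measures the receptors were near the background. The groups did not overlap for 28% of them (7 of 25), and for 32.2% of all tested genes. Among the receptors 5 were separated with the null arrays lower and 2 with them higher, where all genes gave 17.3% and 14.9%. An unadjusted p under 0.05 was found for 24% of the receptors (6 of 25, of which Rarb alone was higher) and 24.0% of all genes. The median log2 difference, null minus heterozygous, was -0.13 over the 25 receptors and -0.01 over all tested genes. Nr6a1 itself, which is no member, rose by 3.37 on the log2 scale (SE 0.20, limma adjusted p = 0.00647), and none of the 25 rose past the test.

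**Figure D1:**
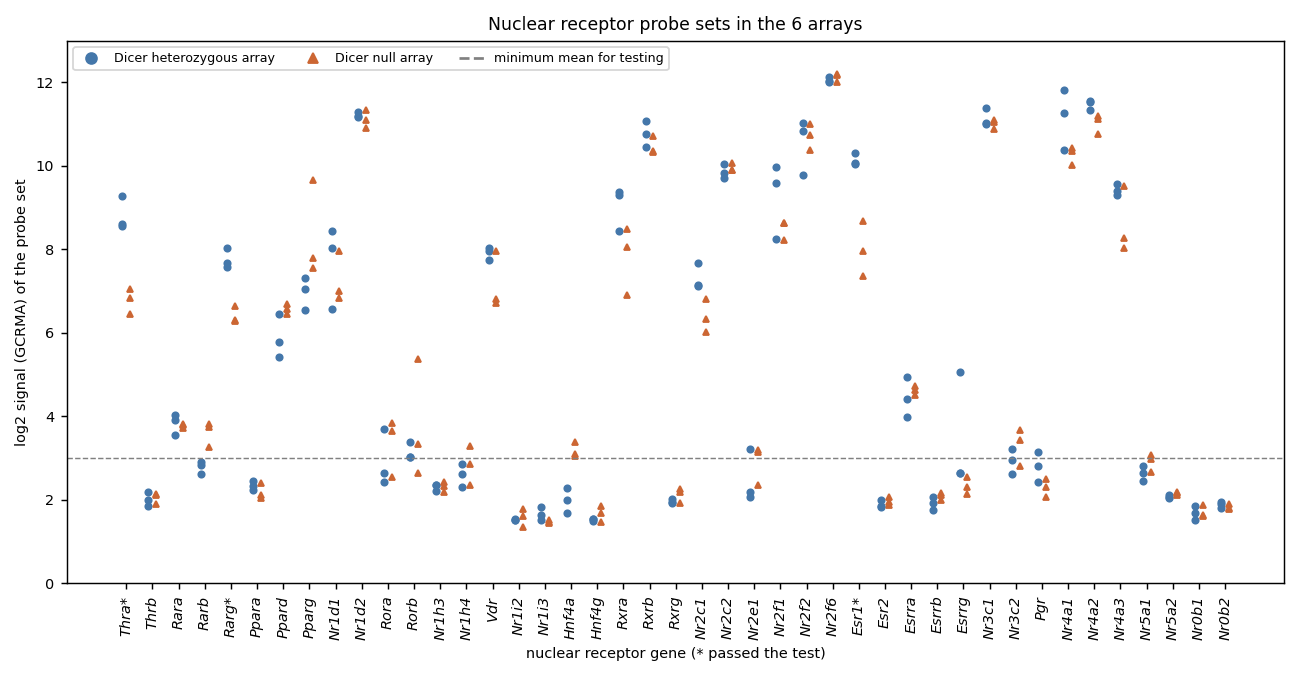
Each column is 1 of the 43 receptors, in family order, and the vertical axis is the log2 GCRMA signal of its probe set in the 3 Dicer heterozygous arrays (circles) and the 3 Dicer null arrays (triangles). The dashed line marks the minimum mean of 3 for testing. Thra, Rarg and Esr1, starred, have all null arrays below all heterozygous arrays, and 18 receptors have means under the line.

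Thra encodes thyroid hormone receptor alpha, which activates or represses genes according to whether thyroid hormone is bound. Its brightest probe set read 8.56, 8.60 and 9.27 in heterozygous replicates 1 to 3 and 7.05, 6.44 and 6.83 in the null ones. The groups lay more than 1 log2 unit apart. Thra fell 4.10-fold, by 2.04 on the log2 scale (SE 0.27, limma adjusted p = 0.0249). Its other tested probe sets did not show this: one read 7.52, 7.70 and 7.12 against 7.74, 7.47 and 7.84, and another 4.5, 5.27 and 5.53 against 5.37, 5.07 and 6.11. Their differences were 0.24 (SE 0.22) and 0.42 (SE 0.38), with overlapping groups, and the mean of the Thra probe sets differed by -0.46 and was not called (limma adjusted p = 0.259). The transcripts that each probe set reads were not analysed here. Thra overlaps its neighbour Nr1d1 in the GRCm38.p6 gene table, and whether a probe set of one reads RNA of the other was not tested. Of the 25 tested receptors 13 had another tested probe set, and in 7 of these all agreed in sign and in 6, Thra among them, they did not. The related beta receptor, Thrb, lay between 1.85 and 2.17 in all arrays.

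The fall of Thra passed the test in 2 of the 6 fits that leave out 1 array, those without heterozygous replicate 1 or 3. Without heterozygous replicate 2 limma's adjusted p was 0.0723, and without null replicates 1, 2 and 3 it was 0.0594, 0.0929 and 0.0979. The log2 difference stayed between -2.18 and -1.81 in these fits.

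Esr1 encodes estrogen receptor alpha. It read 10.30, 10.06 and 10.05 in the heterozygous arrays and 8.67, 7.37 and 7.97 in the null ones. The heterozygous arrays lay close together and all null arrays lay below them. Esr1 fell 4.39-fold, by 2.13 on the log2 scale (SE 0.34, limma adjusted p = 0.0360). A second probe set read 7.41, 7.6 and 9.20 against 6.32, 5.85 and 7.02, again without overlap (log2 difference -1.67, SE 0.55), and a dim one differed by -0.61 (SE 0.43) with overlap. Neither was called, but the mean of the Esr1 probe sets was. Of the fits without 1 array, the one without null replicate 1 kept the call (limma adjusted p = 0.0390). The others gave 0.0701, 0.103 and 0.0536 without heterozygous replicates 1, 2 and 3 and 0.0889 and 0.130 without null replicates 2 and 3, with log2 differences of -2.47 to -1.82 over all of them. Estrogen receptor beta, Esr2, lay between 1.82 and 2.06 in all arrays, and the progesterone receptor Pgr, a classical target of estrogen, between 2.06 and 3.13.

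Rarg and Rarb encode retinoic acid receptors gamma and beta, which pair with retinoid X receptors. Rarb is itself a target of retinoic acid, through a direct repeat of the receptor hexamer in its promoter. Of 45 members 41 have windows in the RefSeq promoter table (GRCm38.p6), which run from 250 bases before a start of transcription to 50 after it, and those of Rarb and Rarg are shown because their differences had opposite signs. The capitals mark hexamers (AGGTCA, its variants AGTTCA and also GGGTCA, and the form GGTTCA, on either strand) and GC boxes (GGGCGG, on either strand, which in one place overlap). Both genes lie on the minus strand, Rarb at chr14:16575427-16575726, and Rarg with starts at chr15:102257473-102257772 (start 1) and chr15:102246451-102246750 (start 2).
Rarb: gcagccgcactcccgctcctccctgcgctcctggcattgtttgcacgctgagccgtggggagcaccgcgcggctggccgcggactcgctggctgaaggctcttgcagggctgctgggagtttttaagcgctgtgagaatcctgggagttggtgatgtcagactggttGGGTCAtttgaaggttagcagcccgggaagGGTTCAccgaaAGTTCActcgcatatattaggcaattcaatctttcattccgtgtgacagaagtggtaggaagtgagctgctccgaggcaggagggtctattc
Rarg start 1: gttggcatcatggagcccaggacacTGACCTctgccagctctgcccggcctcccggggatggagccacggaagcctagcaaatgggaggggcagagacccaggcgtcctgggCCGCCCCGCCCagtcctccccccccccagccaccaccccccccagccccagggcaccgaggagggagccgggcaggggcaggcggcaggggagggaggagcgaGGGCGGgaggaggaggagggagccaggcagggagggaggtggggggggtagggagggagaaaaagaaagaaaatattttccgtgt
Rarg start 2: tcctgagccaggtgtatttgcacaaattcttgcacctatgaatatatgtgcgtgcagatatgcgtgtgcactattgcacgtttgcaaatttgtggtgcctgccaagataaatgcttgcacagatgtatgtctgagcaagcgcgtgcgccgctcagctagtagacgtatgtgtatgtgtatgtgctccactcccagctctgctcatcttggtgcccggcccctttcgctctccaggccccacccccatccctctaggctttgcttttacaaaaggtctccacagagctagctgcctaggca
In the Rarb window, 2 hexamers 5 bases apart form a direct repeat, at positions -53 to -37 from the start. Such a repeat was found in 0.0974% of all 32851 promoter windows and in no other window of a member, although a hexamer alone was found in 43.7% of all windows. Start 1 of Rarg held 3 GC boxes and a single hexamer, and start 2 held neither. At least 1 GC box was found in 35.7% of all windows. These matches are letters only, and the arrays do not show which start was used.

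Rarg read 7.67, 8.03 and 7.57 in the heterozygous arrays and 6.30, 6.27 and 6.63 in the null ones. Every null array lay below every heterozygous one. Rarg fell 2.56-fold, by 1.36 on the log2 scale (SE 0.20, limma adjusted p = 0.0313), and its second, dimmer probe set had a difference of -0.67 (SE 0.27, limma adjusted p = 0.203), also without overlap. The call was kept without heterozygous replicate 3 (limma adjusted p = 0.0365). It was lost without heterozygous replicates 1 and 2 (0.0561 and 0.0932) and without null replicates 1, 2 and 3 (0.0951, 0.110 and 0.0895), with log2 differences of -1.47 to -1.22, and with the mean of both probe sets (0.0558). Rarb read 2.62, 2.84 and 2.90 in the heterozygous and 3.81, 3.73 and 3.26 in the null arrays. Its groups did not overlap, but both lay near the minimum, which Rarb met only through the null arrays. The log2 difference of 0.81 did not pass (SE 0.21, limma adjusted p = 0.0901). The alpha receptor, Rara, read 3.83 ± 0.24 and 3.77 ± 0.06 (SD, n = 3).

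The mean of all 12 mesenchymal markers, given above, was lower in each null array than in each heterozygous one. This rests on Thy1, under the minimum, which read 4.29 in heterozygous replicate 1 and 1.45 to 1.77 in the other arrays. Without Thy1 the groups overlap, as null replicate 1 then lies above heterozygous replicate 1. The members of that list differed unevenly, with Pdgfra, S100a4 and Pdgfrb at -1.63, -1.37 and -1.03. The median over the 11 tested was -0.10 and 0 were called by limma. An unadjusted p under 0.05 was found for 3 of the 11 (27.3%), near the 24.0% of all tested genes. The mean of the epithelial markers overlapped, at 2.30 to 3.40 and 2.60 to 3.34, with its highest value in the array where Krt18 was bright. One of them, the tight junction gene Ocln, rose from 1.69, 1.27 and 1.25 to 4.11, 5.81 and 3.97, at least 3.10-fold (limma adjusted p = 0.0356). Its heterozygous arrays were all under 3, so Ocln met the minimum for testing only through the null arrays, where it was high. The mean of the markers of steroid-making cells was 2.39 to 2.53 and 2.54 to 2.56. The mean of the proliferation genes was higher in each null array. The part of these marker and proliferation genes in the differences of Thra, Rarg and Esr1 was not tested. In bulk samples fewer cells of a type and less RNA per cell cannot be told apart.

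**Figure D2:**
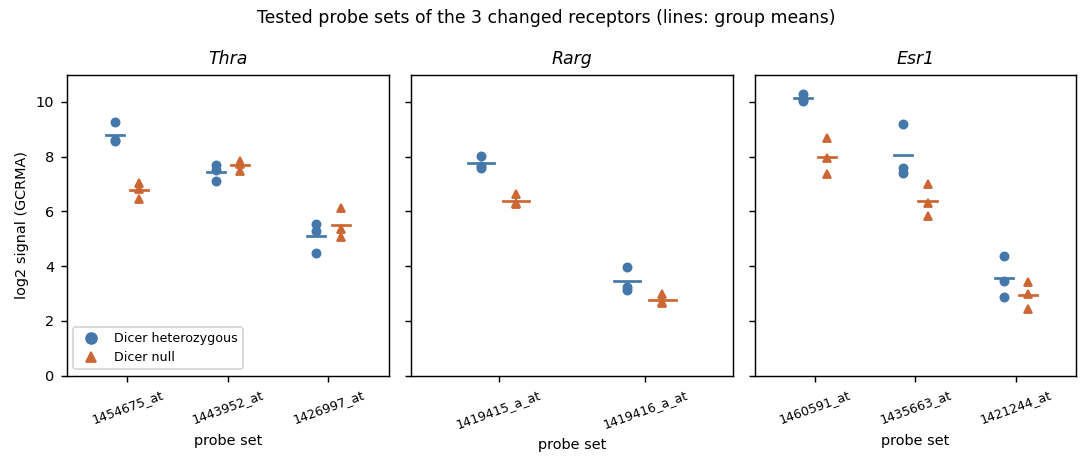
The log2 GCRMA signal (vertical axis) of each tested probe set of Thra, Rarg and Esr1 (horizontal axis, brightest first) is shown for the 3 Dicer heterozygous arrays (circles) and the 3 Dicer null arrays (triangles), with short lines at the group means. The null arrays are lower in every tested probe set of Rarg and Esr1 by their means, but only in the brightest of Thra.

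The glucocorticoid receptor, Nr3c1, which cortisol-type hormones bind, did not differ detectably and was bright on both sides. It read 11.02, 11 and 11.39 in the heterozygous arrays and 11.04, 10.89 and 11.10 in the null ones. The groups overlapped. The log2 difference was -0.13, with a 95% interval of -0.56 to 0.31 (limma adjusted p = 0.717), which leaves out a 2-fold change either way. The sign turned with the mean of its probe sets (0.14). The mineralocorticoid receptor Nr3c2 read 2.93 ± 0.30 and 3.30 ± 0.45 (SD, n = 3), near the minimum. Vdr, the vitamin D receptor, read 7.74, 8.04 and 7.95 in the heterozygous arrays and 7.96, 6.81 and 6.71 in the null ones. Null replicate 1 lay among the heterozygous arrays and the other null arrays about 1 unit lower, and the log2 difference of -0.75 did not pass (95% interval -1.62 to 0.12).

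Among the lipid-sensing receptors Pparg, the master regulator of fat cell formation, had the largest positive difference of the 25. It read 6.55, 7.31 and 7.04 in the heterozygous arrays and 7.55, 7.79 and 9.66 in the null ones. The groups did not overlap, and null replicate 3 stood far above the rest. The log2 difference of 1.37 did not pass (SE 0.58, 95% interval -0.04 to 2.77, limma adjusted p = 0.226), and without null replicate 3 it was 0.70. Beside it, 3 of the 8 adipocyte markers reached the minimum, Fabp4, Ucp1 and Lipe, and the list's mean was 3.69 to 3.93 in the heterozygous and 3.00 to 3.93 in the null arrays. Adipoq and Cidec gave at most 2.81 and 2.12 in any array. Fabp4, a fatty acid binding protein and PPAR gamma target, read 8.55, 9.73 and 8.87 against 7.92, 5.33 and 10.18, also highest in null replicate 3. Ucp1, an uncoupling protein of brown fat, read 8.16, 8.05 and 8.11 against 7, 5.57 and 7.55, and was not called (limma adjusted p = 0.164). The lipase Lpl, another PPAR target, was lowest in null replicate 3, at 7.73 against 11.06 to 11.99 in the other arrays. The part of these genes in the difference of Pparg was not tested. Ppard, a widely expressed regulator of fatty acid oxidation, read 6.44, 5.77 and 5.43 in the heterozygous and 6.56, 6.44 and 6.68 in the null arrays. The groups touched at 6.44, and the log2 difference of 0.68 did not pass (SE 0.28, limma adjusted p = 0.216). Ppara, the form of liver and muscle, and the oxysterol receptor Nr1h3 lay between 2.05 and 2.44 in all arrays.

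The retinoid X receptors are the common partners of the receptors for thyroid hormone, retinoic acid, vitamin D, fatty acids and oxysterols. Rxra read 8.45, 9.37 and 9.31 in the heterozygous arrays and 8.49, 6.90 and 8.06 in the null ones. Heterozygous replicate 1 and null replicate 1 were alike, and elsewhere the null arrays were lower. The log2 difference of -1.23 (SE 0.47) did not pass (limma adjusted p = 0.189), and a dimmer probe set gave -0.83 (SE 0.29) without overlap. Rxrb read 10.77 ± 0.31 and 10.47 ± 0.21 (SD, n = 3), and Rxrg, a form of muscle and brain, stayed at or under 2.25.

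The REV-ERB repressors Nr1d1 and Nr1d2 and the ROR activators compete for the same DNA elements in the circadian clock. Nr1d1 read 8.45, 8.04 and 6.58 in the heterozygous arrays and 6.99, 7.95 and 6.84 in the null ones. It varied as much within as between the groups, with a log2 difference of -0.43 (95% interval -1.76 to 0.90). Nr1d2 read 11.18, 11.29 and 11.20 against 10.90, 11.34 and 11.10, and its difference of -0.11 was within -0.54 to 0.32. Rora and Rorb had arrays on both sides of 3. Rora ranged from 2.42 to 3.84, and Rorb stood out at 5.37 in null replicate 2, against 2.64 to 3.38 elsewhere.

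The COUP receptors and their relatives are orphans that mostly repress. Nr2f6 read 12.03, 12.12 and 12.01 in the heterozygous arrays and 12, 12.20 and 12.19 in the null ones. All 6 values lay within 0.2 of each other, and the log2 difference of 0.08 had a 95% interval of -0.29 to 0.45. Nr2f2, which marks mesenchyme and veins, read 10.55 ± 0.67 and 10.71 ± 0.31, and Nr2f1 read 9.27 ± 0.90 and 8.49 ± 0.23 (SD, n = 3). Nr2c1, the testicular receptor, read 7.14, 7.12 and 7.67 in the heterozygous arrays and 6.81, 6.32 and 6.01 in the null ones. The groups did not overlap and its other tested probe sets had negative differences too (-0.50, -0.93 and -0.74), but its log2 difference of -0.93 did not pass (SE 0.27, limma adjusted p = 0.118). Its relative Nr2c2 read 9.87 ± 0.16 and 9.95 ± 0.10. The estrogen-related receptor Esrra, a driver of mitochondrial genes that binds no estrogen, read 4.44 ± 0.49 and 4.62 ± 0.12 (SD, n = 3).

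The NR4A receptors are immediate early genes, made quickly and without a known need for ligand, and all were bright in these cells. Nr4a1 read 10.39, 11.26 and 11.81 in the heterozygous arrays and 10.36, 10.03 and 10.42 in the null ones. Heterozygous replicate 1 lay with the null arrays and the others above them. Nr4a2 read 11.33, 11.56 and 11.52 against 11.13, 10.77 and 11.20. Here the groups did not overlap, although they lay close together. In the other tested probe sets of Nr4a2 the groups overlapped, with differences of -0.72, -0.65, -0.80 and 0.14. Nr4a3 read 9.39, 9.57 and 9.31 against 9.52, 8.03 and 8.28. The log2 differences of -0.88, -0.44 and -0.81 (SE 0.37, 0.19 and 0.40) did not pass the test (limma adjusted p = 0.223, 0.226 and 0.280). Other immediate early genes had a median of -0.11, and 0 of 29 tested were called. The smallest p among them was that of Klf4, a zinc finger factor of growth arrest, at 10.77 ± 0.33 and 9.73 ± 0.29 (SD, n = 3; limma adjusted p = 0.0776).

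**Figure D3:**
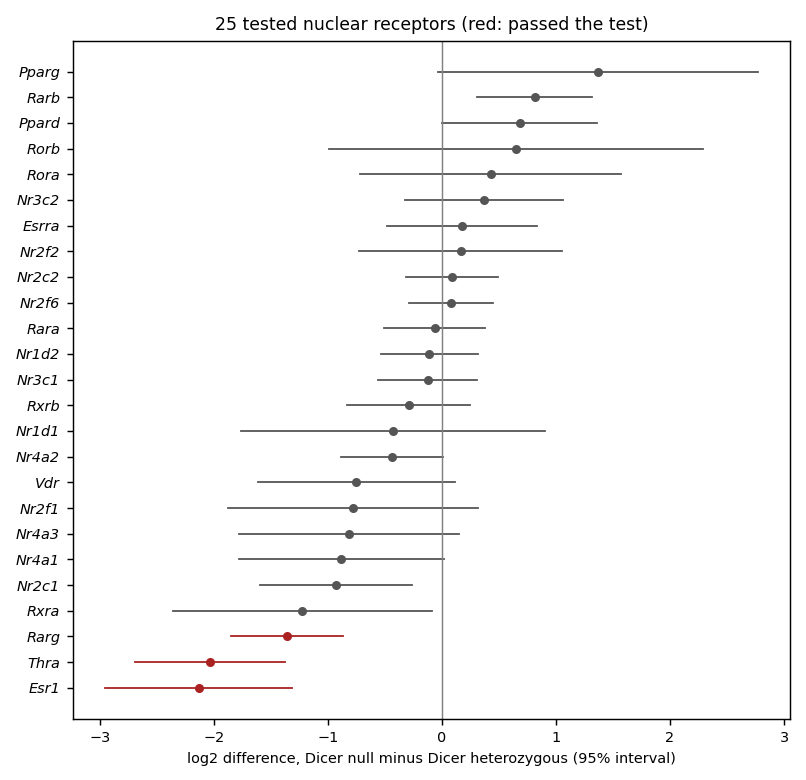
The log2 difference between Dicer null and Dicer heterozygous arrays is plotted for the 25 tested receptors (horizontal axis) with its 95% interval from limma, ordered by size. Esr1, Thra and Rarg, in red, passed the test, and Pparg at 1.37 has the highest value and a wide interval that includes 0.

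The 18 receptors under the minimum were Thrb, Ppara, Nr1h3, the bile acid receptor Nr1h4, the xenobiotic receptors Nr1i2 and Nr1i3, Hnf4a, Hnf4g, Rxrg, Nr2e1, Esr2, Esrrb, Esrrg, Pgr, Nr5a1, Nr5a2, Nr0b1 and Nr0b2. In 12 of them every array was under 3. Esrrg reached 5.07 in heterozygous replicate 3 and 2.13 to 2.64 in the other arrays. Hnf4a, a regulator of liver and gut genes, read 2.28, 2.0 and 1.68 in the heterozygous arrays and 3.38, 3.04 and 3.10 in the null ones. The groups did not overlap, but it is near 3 in the null arrays and under it in the others, so it has no test here. Against the level of 3 the null arrays were at least 1.13-fold brighter, and its other 3 probe sets stayed at or under 2.06. Promoters of the tested members held more CpG than those under the minimum, as in the array at large. The median ratio of observed to expected CpG, taking the window with most for each gene, was 0.781 over 23 tested members and 0.438 over 16 others, and 0.798 over 9287 tested genes and 0.348 over 5165 genes under the minimum.

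Coregulators carry out what the receptors direct. Of 50 tested coactivator and corepressor genes 1 fell and 1 rose, 4% against 3.46% of all genes. Smarcd3, a subunit of the SWI/SNF chromatin remodeller that binds receptors, read 5.97, 6.8 and 6.58 in the heterozygous and 5.07, 4.05 and 3.98 in the null arrays. All null arrays were lower, and it fell 4.24-fold (log2 difference -2.08, SE 0.37, limma adjusted p = 0.0451). Lcor, a corepressor that ligand-bound receptors recruit, read 10.61, 10.59 and 10.51 against 11.55, 11.36 and 11.48. All null arrays were higher, and it rose 1.86-fold (log2 difference 0.89, SE 0.15, limma adjusted p = 0.0401). Of the fits without 1 array Smarcd3 was called in 1 of 6, that without null replicate 1, and Lcor in 0 of 6, with adjusted p up to 0.154 and 0.151. The median difference was 0.11 over 29 coactivators and -0.05 over 21 corepressors.

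Genes known to be controlled by the receptors, or to act beside them in the clock and the immediate early response, were described from 8 lists, which hold 136 tested genes together. Of these 4 fell and 1 rose, 3.68% against 3.46% of all tested genes. All of these called genes but Klf15, described below, met the minimum only through the group where they were high. The share with groups that did not overlap was 35.3%, against 32.2%. Neither share was far from the background. Pdk4, which blocks pyruvate oxidation and answers both PPARs and glucocorticoids, read 10.32, 10.63 and 11.76 in the heterozygous and 2.70, 2.75 and 1.89 in the null arrays. It went from bright to under the minimum, at least 239-fold lower (limma adjusted p = 0.00407), where a fold marked "at least" sets the dimmer group at no less than 3.

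Of 20 tested PPAR targets Pdk4 alone was called, and 16 had negative differences, with a median of -0.65. In 8 of the 20 all null arrays lay below all heterozygous ones and in 1 above, where 17.3% and 14.9% of all tested genes did. Of 13 targets of the oxysterol receptors (LXR) 1 fell and 1 rose, against 2.0% and 1.45% of all tested genes. Smpdl3a, a phosphodiesterase, read 6.27, 4.87 and 7.27 against 2.10, 1.70 and 1.78, and the cholesterol transporter Abcg1 read 4.34, 3.01 and 1.57 against 6.40, 9.32 and 8.70. They moved in opposite directions, by at least 8.80-fold and at least 25.8-fold (limma adjusted p = 0.0259 and 0.0492). Smpdl3a met the minimum only through the heterozygous arrays. Abcg1, with a heterozygous mean of 2.97, met it only through the null arrays. Of 23 glucocorticoid targets 3 fell and 0 rose, against 2.0% and 1.45% of all tested genes, with a median of -0.30, and Pdk4 is one that this list shares with the PPAR targets. Besides Pdk4 these were the factor Klf15, at 6.95 ± 0.74 and 3.02 ± 0.13, and Hsd11b1, an enzyme that regenerates active glucocorticoid, at 5.04 ± 1.07 and 1.79 ± 0.08 (SD, n = 3; limma adjusted p = 0.0145 and 0.0356). Hsd11b1 was at least 4.11-fold lower and met the minimum only through the heterozygous arrays. With values under 3 set to 3, or with no minimum, Hsd11b1 was not called. With no minimum Abcg1 was not called either. With a minimum mean of 4 Hsd11b1 and Smpdl3a were not tested. Without 1 array Pdk4 stayed called in 6 of 6 fits and Klf15 in 4, but not without null replicate 2 or 3, and Smpdl3a (heterozygous replicate 2 or 3 left out) and Hsd11b1 (heterozygous replicate 1 or 3) in 2 each. Abcg1 was called in 0 of 6.

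Estrogen and ERR targets had 0 of 18 called, and their median was 0.06. The smallest p was that of Greb1, an estrogen-induced cofactor of Esr1, which read 9.27, 10.48 and 9.65 in the heterozygous and 7.39, 4.44 and 5.87 in the null arrays. All null arrays were lower. The difference of -3.90 just missed the threshold (SE 0.75, limma adjusted p = 0.0526). Against 17.3% and 14.9% of all tested genes, 2 of the 18 had all null arrays lower and 6 had them higher. The growth factor Igf1, with nearly the same p, was one of the latter (log2 difference 2.92, SE 0.57, limma adjusted p = 0.0527). Retinoid targets also had 0 of 15 called, with a median of -0.05. The nearest was Cyp26a1, which degrades retinoic acid, at 2.64, 2.49 and 2.53 against 3.73, 4.07 and 3.36. Its null arrays were all higher (log2 difference 1.17, SE 0.22, limma adjusted p = 0.05001, just above the threshold), and it was dim. The heterozygous arrays were all under 3, so Cyp26a1 met the minimum only through the null arrays, which were at least 1.65-fold brighter. The bright transglutaminase Tgm2 had all null arrays lower instead, at 12.15, 10.49 and 10.74 against 9.21, 8.28 and 8.22 (log2 difference -2.56, SE 0.51, limma adjusted p = 0.0548). Thyroid hormone and vitamin D targets had 0 of 8 called, with the malic enzyme Me1 nearest (log2 difference -0.60, SE 0.18, limma adjusted p = 0.118). Clock genes had 0 of 18 called and a median of -0.03, and the kinase Wee1 came nearest (0.75, SE 0.23, limma adjusted p = 0.126). An unadjusted p under 0.05, found for 24.0% of all tested genes, was found for 9 of 20 PPAR targets (45%), 5 of 13 LXR targets (38.5%) and 8 of 23 glucocorticoid targets (34.8%). It was found for 5 of 18 estrogen and ERR targets, 4 of 15 retinoid targets, 2 of 8 thyroid hormone and vitamin D targets, 6 of 18 clock genes and 3 of 29 immediate early genes.

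**Figure D4:**
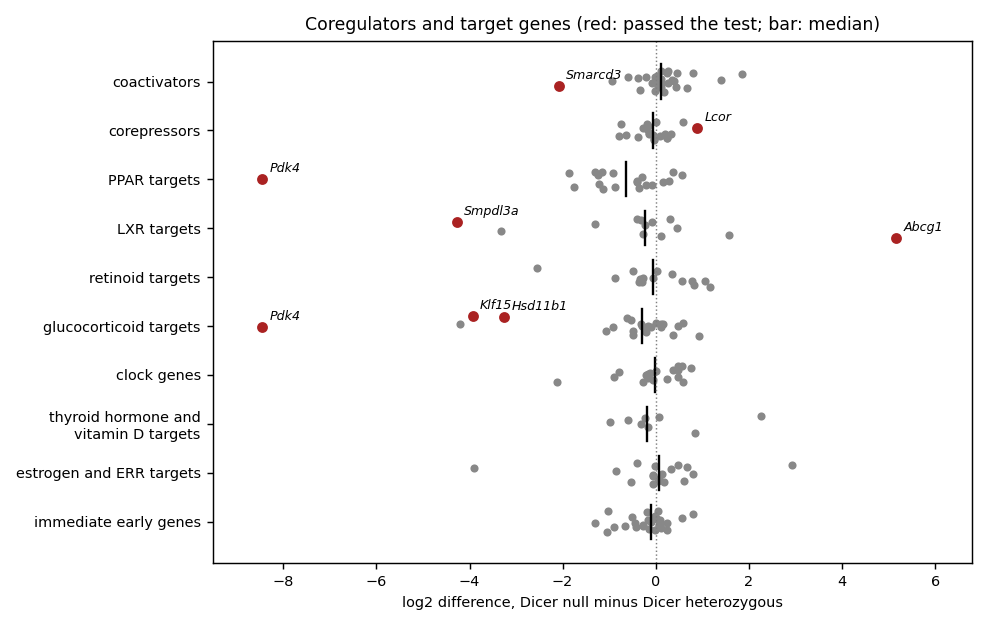
Each point is 1 tested gene of a list of coregulators, receptor targets, clock genes or immediate early genes, and the horizontal axis is its log2 difference, Dicer null minus Dicer heterozygous. Black bars are medians and red points passed the test. The medians lie between -0.65 (PPAR targets) and 0.11 (coactivators), with Pdk4 far to the left in both lists that hold it.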

How the data were processed

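RNA of 6 samples was hybridized to Affymetrix 3′ expression arrays. The deposited values are log2 signals per probe set that the authors made with GCRMA 2.20.0 under R 2.11.1, versions that the submitters' processing notes name. By default that method corrects background by probe sequence and normalizes quantiles between arrays, which would remove an overall shift between groups. The sources used here do not give its settings.

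Groups came from the titles. Of 45037 probe sets, 34945 had 1 gene symbol, 932 several and 9160 none in the platform annotation, and only the first kind was named. The 24385 with a mean of at least 3 were fitted with limma 3.58.1 in R 4.3.3 (lmFit, then eBayes; two-sided, without a block), and p-values were adjusted by Benjamini-Hochberg over all of them. The code was tested on simulated data.

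Receptors named in full were those called, those with separate groups and a log2 difference of at least 1, and the 5 brightest. Of each list the called genes, or else the one with the smallest p, were named, and markers or targets beside a result (Fabp4, Ocln, Igf1, Tgm2 and others) were chosen after their values were seen. The members and lists were chosen with earlier results of these data known. The labels do not say that replicate numbers pair the arrays, so the numbers were not taken as pairs. Same-numbered arrays had deviation correlations of -0.06, 0.11 and 0.24, which are too few to decide whether they are pairs. Alternatives were other minimums, normalization, moderation, array weights, a floor, a replicate block, other probe set choices and each array left out. Figures were drawn with matplotlib 3.10.9.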

Additional observations from a re-analysis of the deposited data

How the results depend on the processing

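The array weights by the gene-by-gene method were added after the data were seen, and the other settings were planned. Of 171 log2 differences over 9 receptors and all alternatives, 142 kept direction and side of the threshold, 22 lost and 2 gained a call and 5, all uncalled and near 0, changed sign. These 5 were Nr1d2 (0.12) and Nr3c1 (0.14) with the mean of a gene's probe sets, Nr3c1 without the s and x suffix (0.0133), and Nr2f6 (-0.0082) and Nr3c1 (0.0209) with default array weights. Causes were not tested unless given.

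Of 13 settings with all arrays, Thra and Rarg stayed called in 10 each and Esr1 in 11. Gene-by-gene weights added Rarb, for 4 receptors, and Rarb met the minimum only through the null arrays, where it was high. A minimum in 1 group also gave 4, with Hnf4a, which met that minimum only through the group where it was high, so this call is no evidence. Ordinary t statistics gave 0 receptors, 0 coregulators, 0 targets and 0 probe sets, and at an unadjusted p under 0.05 6 receptors, 13 coregulators, 34 targets and 4873 probe sets. Default array weights gave 11 of 25 receptors, 14 of 50 coregulators, 45 of 136 targets and 6875 of 24385 probe sets. Gene-by-gene weights gave 7 coregulators, 24 targets and 2949 probe sets. Shares over all tested genes were computed for the main fit only, so counts under other settings are not set against a gene background. The mean of a gene's probe sets gave 1 receptor (Esr1) and 10 targets. Targets numbered 3 with a minimum mean of 4 or no minimum and 13 with trend and robust moderation, and coregulators 1 with no minimum. Without 1 array, 45 to 857 probe sets, 0 to 2 receptors, 0 to 1 coregulators and 1 to 7 targets were called.

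With the replicate number as a replicate block, 116 probe sets, 0 receptors, 0 coregulators and 3 targets were called, and Thra, Rarg and Esr1 had limma adjusted p of 0.0688, 0.0876 and 0.0701, with 6 receptors, 10 coregulators, 39 targets and 5995 probe sets at an unadjusted p under 0.05. By deviations, 3 of the 6 arrays were nearest to the array of the same number. Signal near 3 limits what can be said of Rarb, Rora, Rorb, Nr3c2 and the 18 receptors under the minimum.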

Other observations

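Some coregulators outside the naming rule, picked after their values were seen, had null arrays all above the heterozygous ones without passing the test. The coactivator Ppargc1b, a partner of estrogen-related receptors and PPARs, read 5.02 ± 0.78 in the heterozygous and 6.87 ± 0.65 in the null arrays, Ncoa7 read 9.34 ± 0.42 and 10.74 ± 0.58, and Ncoa3 read 10.76 ± 0.10 and 11.43 ± 0.28 (SD, n = 3; limma adjusted p = 0.0956, 0.0920 and 0.118). Others had all null arrays lower, such as the corepressors Hdac5 (log2 difference -0.75, limma adjusted p = 0.0955) and Bcl6 (-0.80, limma adjusted p = 0.148). Of the 50 coregulators 14 were separated with the null arrays higher and 5 with them lower, 38% in either direction. All tested genes gave 14.9% higher, 17.3% lower and 32.2% in either direction. The cholesterol transporter Abca1, like Abcg1 a target of oxysterol receptors, read 7.75, 8.52 and 9.99 in the heterozygous arrays and 7.06, 3.86 and 5.39 in the null ones, a difference of -3.32, opposite in sign to that of Abcg1, and was not called (limma adjusted p = 0.104).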
